A study of Homo sapiens with 21 samples.

Results

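The comparison described here sets A673 cells rescued with the mut9 form of EWS/FLI against A673 cells rescued with the delta 22 form. It rests on 7 of the 21 RNA sequencing libraries of the study, 3 of mut9 and 4 of delta 22, and on the 18040 genes, of 57820 in the table, that reached 10 on the linear scale in at least 3 of the 21 libraries. A673 is an established human Ewing sarcoma cell line. In both groups the cells stably carried an RNAi against EWS/FLI (EF-2), were selected for 4 days and were then infected with a pMSCV-hygro vector carrying the mutant. The other groups were 5 libraries of the same knockdown given full-length type IV EWS/FLI (wild type), 5 of the knockdown given the empty vector (knockdown), and 4 of cells with an RNAi against luciferase and the empty vector (control). The mut9 libraries came from the labelled batches 3, 4 and 5, and the delta 22 libraries from batches 1 to 4. Replicate numbers below are those batches. All libraries came from 1 cell line, the labels do not say whether a batch is a separate infection, and each mutant is 1 construct, so p-values measure the spread between these libraries. The labels do not give the residues changed in mut9 or lost in delta 22, and no residue is named here.

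Ewing sarcoma is driven in most tumours by a chromosome translocation that joins the amino-terminal part of EWSR1, a low-complexity activation domain, to the DNA-binding ETS domain of FLI1. The fusion protein binds ETS sites with a GGAA core and also binds repeats of GGAA, where it can open chromatin and recruit coactivators to switch on genes such as NR0B1, NKX2-2 and PRKCB. Other genes, many of them mesenchymal, matrix and signalling genes, rise when the fusion is depleted and are known as its repressed targets. Knockdown and rescue in A673 is a common test of which features of the fusion each of these functions needs.

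Values are the authors' normalised log2 values, of which a difference of 1 is 2-fold. Read totals per library were not analysed here, so the depth behind each value is unknown. Between 16997 and 17077 genes reached 10 on the linear scale in mut9 libraries, against 16908 to 17115 in delta 22 libraries. Over the genes tested, mut9 libraries correlated with each other at r = 0.9937 to 0.9963 and delta 22 libraries at 0.9899 to 0.9943, while pairs of 1 mut9 and 1 delta 22 library gave 0.9497 to 0.9692. On the first principal component of all 21 libraries, which held 71.3% of the variance, mut9 libraries lay at -31.4 to -24.4, delta 22 libraries at 69.1 to 91.9, wild-type libraries at -62.8 to -30.5, knockdown libraries at 73.3 to 91.6 and control libraries at -103.9 to -90.9. Wild-type replicate 3 stood apart from the other wild-type libraries in interferon and NF-kB genes, and results that use wild type are given with and without it where it matters. CD99, a membrane protein used as a diagnostic marker of Ewing sarcoma, is listed at 0 in every library and was not tested. Why it is at 0 was not examined, and the 0 is not read here as absence of the RNA.

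FLI1 supplies the DNA-binding part of the fusion and EWSR1 the amino-terminal part, so reads of a rescue construct can fall on either gene. FLI1 had levels of 10.39, 10.2 and 10.1 in mut9 libraries, against 11.51, 11.22, 10.99 and 11.38 in delta 22 libraries. The groups did not overlap. FLI1 was lower in mut9 by 2.06-fold (difference -1.05 ± 0.11, limma adjusted p = 3.92e-07). Here and below a difference is mut9 minus delta 22 on the log2 scale, ± its standard error, with n = 3 and 4, and a gene is called, or rose or fell, at a limma adjusted p below 0.05 over all genes. For FLI1 the exact permutation test over libraries, two-sided, gave p = 0.0571, the smallest that 3 against 4 allows. Mean FLI1 was 10.47 with wild type, 9.77 in the knockdown and 11.64 in the control, so both mutants lay above the knockdown and below the control. EWSR1 had levels of 13.79, 13.8 and 13.94 in mut9 libraries, against 13.65, 13.69, 13.56 and 13.7 in delta 22 libraries, a difference of 0.19 ± 0.08 (adjusted p = 0.0437; exact two-sided permutation p = 0.0571, adjusted over these 2 tests 0.0571 for both genes). With the batch as a replicate block the EWSR1 difference was 0.21 and was not called (adjusted p = 0.0605), and leaving out delta 22 replicate 1, 2 or 3 or any 1 mut9 library lost the call too (differences of 0.14 to 0.22). The lower FLI1 RNA goes with mut9 at every gene below, and its part in those differences cannot be told apart from that of the protein's sequence.

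Of the 18040 genes, 8885 (49.3%) were called for mut9 minus delta 22 at a limma adjusted p below 0.05, 4229 (23.4%) higher and 4656 (25.8%) lower in mut9. Calls of at least 2-fold came to 2956 (16.4%), of which 1286 (7.13%) were higher and 1670 (9.26%) lower. At 8-fold or more, 187 were higher and 123 lower. The median difference over all genes was -0.01. In 9480 genes (52.5%) the 3 mut9 and 4 delta 22 values did not overlap. Of the called genes, 98.8% had the same direction in batch 3 and in batch 4, the batches that both groups share, and 99.7% of those at 2-fold or more. The libraries of these batches were among those that made the calls, so this agreement was in part set by the selection and is no replication. In a fit of the 7 libraries alone with the batch as a replicate block 5569 genes were called, 2425 of them higher, and 5307 were among the 8885. Calls made up 52.8% of 14234 protein-coding genes, 45.5% of 767 lincRNAs and 35.8% of 959 antisense genes.

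**Figure D1:**
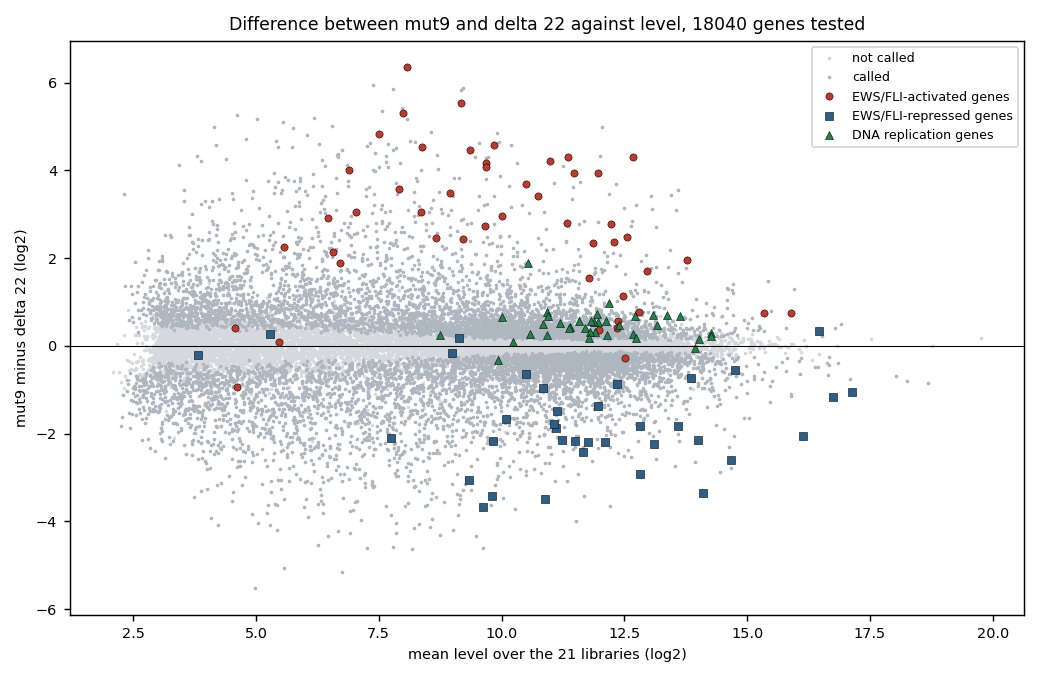
Difference between mut9 and delta 22 (y axis, log2) against the mean level over 21 libraries (x axis, log2) for the 18040 genes tested, 1 dot a gene, with members of 3 gene lists in colour. Most EWS/FLI-activated genes lie above 0, most EWS/FLI-repressed genes below 0, and most DNA replication genes lie just above 0.

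Genes known to be activated by EWS/FLI were higher in mut9, and most of those on GGAA repeats rose too. Of 48 tested, 42 were higher in mut9 and none lower, against 23.4% and 25.8% of all genes, with a median difference of 2.79 against -0.01 for all genes. ERG, AURKA, ID2 and SOX2 were among the 6 not called. ID2, a helix-loop-helix inhibitor, was called with the batch as a replicate block (0.61), and ERG was called lower without delta 22 replicate 4 (-1.25) or mut9 replicate 5 (-1.22) and AURKA without delta 22 replicate 3 (-0.39). Of the 25 tested genes associated with GGAA repeats, many of them on the same list, 24 were higher and 1, SOX2, was not called (0.36 ± 0.18, adjusted p = 0.104), with a median of 2.96. SOX2 was called higher without delta 22 replicate 1 (0.48) or mut9 replicate 5 (0.51) and in batches 3 to 5 alone (0.55). It was also called with mut9 and delta 22 libraries of batches 3 and 4 alone and in the 7 libraries with the batch as a replicate block (0.7 in both). The first list was drawn partly from work in this cell line, so its direction is not independent evidence.

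NR0B1 encodes DAX1, a nuclear receptor corepressor that Ewing cells need for growth. Its levels were 12.22, 12.14 and 11.82 in mut9 libraries, against 7.82, 8.73, 8.48 and 8.51 in delta 22 libraries, a 12.8-fold rise (3.68 ± 0.29, adjusted p = 8.5e-09). NKX2-2, a homeodomain repressor, had 10.03, 10.09 and 9.54 in mut9 libraries, against 7.41, 7.2, 7.42 and 7.7 in delta 22 libraries (difference 2.46 ± 0.19). PRKCB, a protein kinase C, had 14.68, 14.63 and 14.47 in mut9 libraries, against 9.17, 10.55, 10.58 and 10.83 in delta 22 libraries (difference 4.31 ± 0.34). No mut9 value of these 3 genes overlapped a delta 22 value, as was so for 52.5% of all genes. The mean levels in the other groups were 11.41 with wild type, 9.45 in the knockdown and 11.58 in the control for NR0B1, 9.54 with wild type, 7.23 in the knockdown and 9.66 in the control for NKX2-2 and 14.19 with wild type, 10.65 in the knockdown and 14.29 in the control for PRKCB, so in all 3 the mut9 mean was above the wild-type and control means, and the delta 22 mean was below the knockdown mean in NR0B1 and PRKCB and above it in NKX2-2. No test result for these orders of means is given here.

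The glutathione transferase gene GSTM4 rose 15.4-fold (3.94 ± 0.21), though reads can be shared within the GSTM family. FCGRT, the neonatal Fc receptor, had 13.66, 13.55 and 13.36 in mut9 libraries, against 8.89, 8.98, 9.48 and 9.53 in delta 22 libraries, a 19.8-fold rise. Membrane proteins STEAP1 (1.55 ± 0.16), STEAP2 (2.77 ± 0.19) and LIPI, a lipase (4.08 ± 0.35), were also higher. FEZF1, a transcription factor of forebrain development, and its antisense neighbour FEZF1-AS1 rose together (4.16 ± 0.30 and 4.64 ± 0.32), but without a stated strand setting reads of the pair cannot be told apart. KCNAB3, a potassium channel subunit, differed by 2.92 ± 0.19. The smallest called rises on the activated list were VRK1, a nuclear kinase (0.57 ± 0.11), JAK1 (0.74 ± 0.08), CAV1, the main protein of caveolae (0.75 ± 0.15, sequence below), and EZH2, the methyltransferase of Polycomb complex 2 (0.78 ± 0.10). CAV1 was the only gene of 40 on the list whose promoter window in RefSeq (250 bases before to 50 after the start, GRCh38.p14) held GGAA at least 2 times in a row on either strand. The stretch around it, at chr7:116524951-116525038 (plus strand), is printed with the repeat in capitals.
CAV1: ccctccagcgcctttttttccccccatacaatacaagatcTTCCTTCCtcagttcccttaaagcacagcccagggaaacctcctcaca
Of all promoters in RefSeq's table, 3.58% held such a repeat, and 3.57% to 3.64% of those of genes lower or higher in mut9. A match is a run of letters, and binding was not measured.

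**Figure D2:**
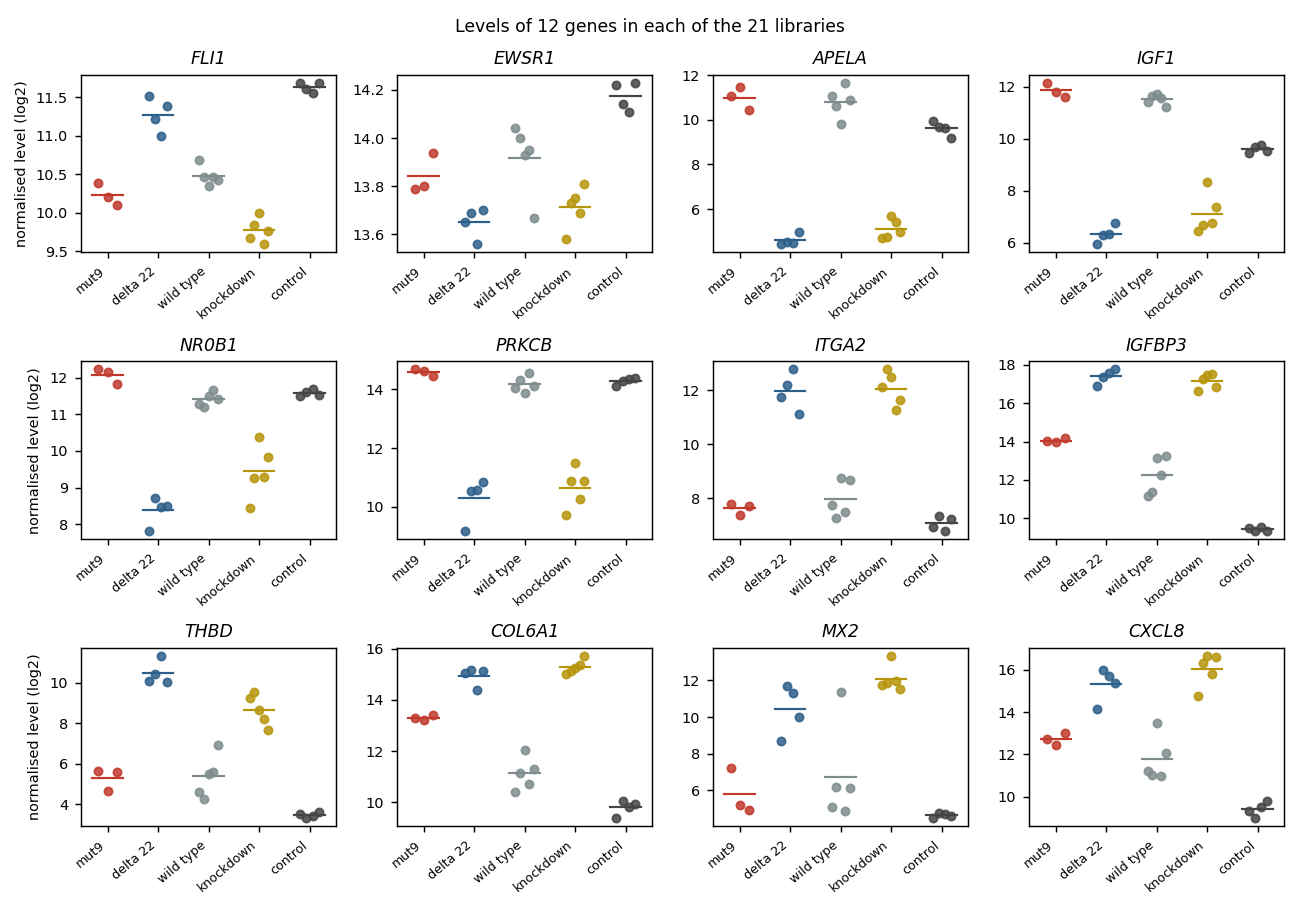
Normalised log2 level (y axis) of 12 genes in each of the 21 libraries, by group (x axis), with 1 point a library and a line at the group mean. For APELA, IGF1, NR0B1 and PRKCB the mut9 points lie with wild type and the delta 22 points with or below the knockdown. For ITGA2, IGFBP3, THBD, COL6A1, MX2 and CXCL8 the delta 22 points lie above the mut9 points, with mut9 between delta 22 and the control. Of these, mut9 did not always lie with wild type, as in IGFBP3 and COL6A1.

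The 12 largest rises among genes with a mean of at least log2(100) were of 4.99 to 6.36. APELA, the ligand ELABELA of the apelin receptor, had 11.06, 11.47 and 10.42 in mut9 libraries, against 4.44, 4.54, 4.49 and 5.0 in delta 22 libraries, an 82.2-fold rise (6.36 ± 0.34, adjusted p = 1.21e-10). IGF1, the ligand of the IGF1 receptor on which Ewing cells depend, had 12.16, 11.81 and 11.6 in mut9 libraries, against 5.95, 6.29, 6.34 and 6.75 in delta 22 libraries, a 46.1-fold rise (5.53 ± 0.31). The groups did not overlap in either gene, which the selection of these 12 required. The microtubule-binding gene MAP7D2 differed by 5.96 ± 0.49, the fatty acid hydroxylase CYP4F22 by 5.89 ± 0.31, the secreted ISM2 by 5.87 ± 0.38 and SCNN1G, the gamma subunit of the epithelial sodium channel, by 5.83 ± 0.46. The next of the 12 were the mast cell tryptase TPSAB1 (5.43 ± 0.37), which has near-identical copies, SLC35F3 (5.35 ± 0.33), the desmosome gene PKP2 (5.31 ± 0.41), LOXHD1 of the inner ear (5.30 ± 0.31), the receptor GPR174 (5.18 ± 0.39) and the Wnt regulator AMER2 (4.99 ± 0.39). Their mut9 means were at or above the wild-type means in 11 of 12, the exception being AMER2 (13.84 with mut9, 13.9 with wild type). No test result for these comparisons of means is given here.

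Genes known to be repressed by EWS/FLI were lower in mut9. Of 36 tested, 29 (80.6%, against 25.8% of all genes) were lower and none higher, with a median of -1.85. Under quantile scaling 28 were lower and 1 higher. IGFBP3, which binds and sequesters insulin-like growth factors, had 14.01, 13.96 and 14.19 in mut9 libraries, against 16.9, 17.38, 17.57 and 17.76 in delta 22 libraries, a fall of 10.2-fold (-3.35 ± 0.38, adjusted p = 7.67e-07). LOX, the collagen cross-linking lysyl oxidase, had 10.73, 11.32 and 11.82 in mut9 libraries, against 13.08, 13.55, 13.55 and 13.64 in delta 22 libraries (difference -2.17 ± 0.33), and TGFBR2, the type 2 TGF-beta receptor, 11.88, 11.8 and 11.79 in mut9 libraries, against 13.17, 13.38, 12.96 and 13.3 in delta 22 libraries (difference -1.38 ± 0.20). All mut9 values of these genes were below all delta 22 values, and 52.5% of all genes had no overlap in 1 direction or the other. The urokinase receptor PLAUR (-2.42 ± 0.16), osteopontin SPP1 (-3.06 ± 0.34), IGFBP7 (-1.67 ± 0.19), annexin ANXA2 (-1.17 ± 0.11), the hyaluronan receptor CD44 (-2.14 ± 0.25) and the intermediate filament gene VIM (-1.04 ± 0.11) were lower as well. Mean IGFBP3 was 12.24 with wild type, 17.14 in the knockdown and 9.42 in the control, against 14.05 with mut9, and mean LOX 10.47 with wild type, 13.88 in the knockdown and 8.0 in the control, against 11.29 with mut9.

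The 12 largest falls among genes of that level ran from -5.15 to -4.16. THBD, thrombomodulin, an anticoagulant receptor of the endothelium, had 5.66, 4.67 and 5.61 in mut9 libraries, against 10.09, 10.43, 11.3 and 10.02 in delta 22 libraries, a fall of 35.5-fold (-5.15 ± 0.50). ESM1, a proteoglycan also known from endothelium, had 8.14, 8.18 and 9.25 in mut9 libraries, against 12.6, 13.4, 13.78 and 12.74 in delta 22 libraries (difference -4.60 ± 0.49). Neither gene's groups overlapped, which the selection of these 12 required. The largest falls further held the interferon-induced GTPase MX2 (-4.63 ± 1.08), the Wnt antagonist SFRP1 (-4.60 ± 0.56), KIAA0040 (-4.59 ± 0.43), the collagen receptor subunit ITGA2 (-4.33 ± 0.39) and GREM1, a secreted BMP antagonist (-4.30 ± 0.69). CXCR4, the receptor of the chemokine CXCL12, differed by -4.27 ± 0.74, the neural scaffold gene ANKS1B by -4.26 ± 0.34, the transcription factor TFAP2C by -4.21 ± 0.59, SCUBE3 by -4.20 ± 0.39 and the integrin activator FERMT1 by -4.16 ± 0.50. Delta 22 replicate 4 was below the other delta 22 libraries in TFAP2C, at 7.41 against 9.80 to 10.20.

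**Figure D3:**
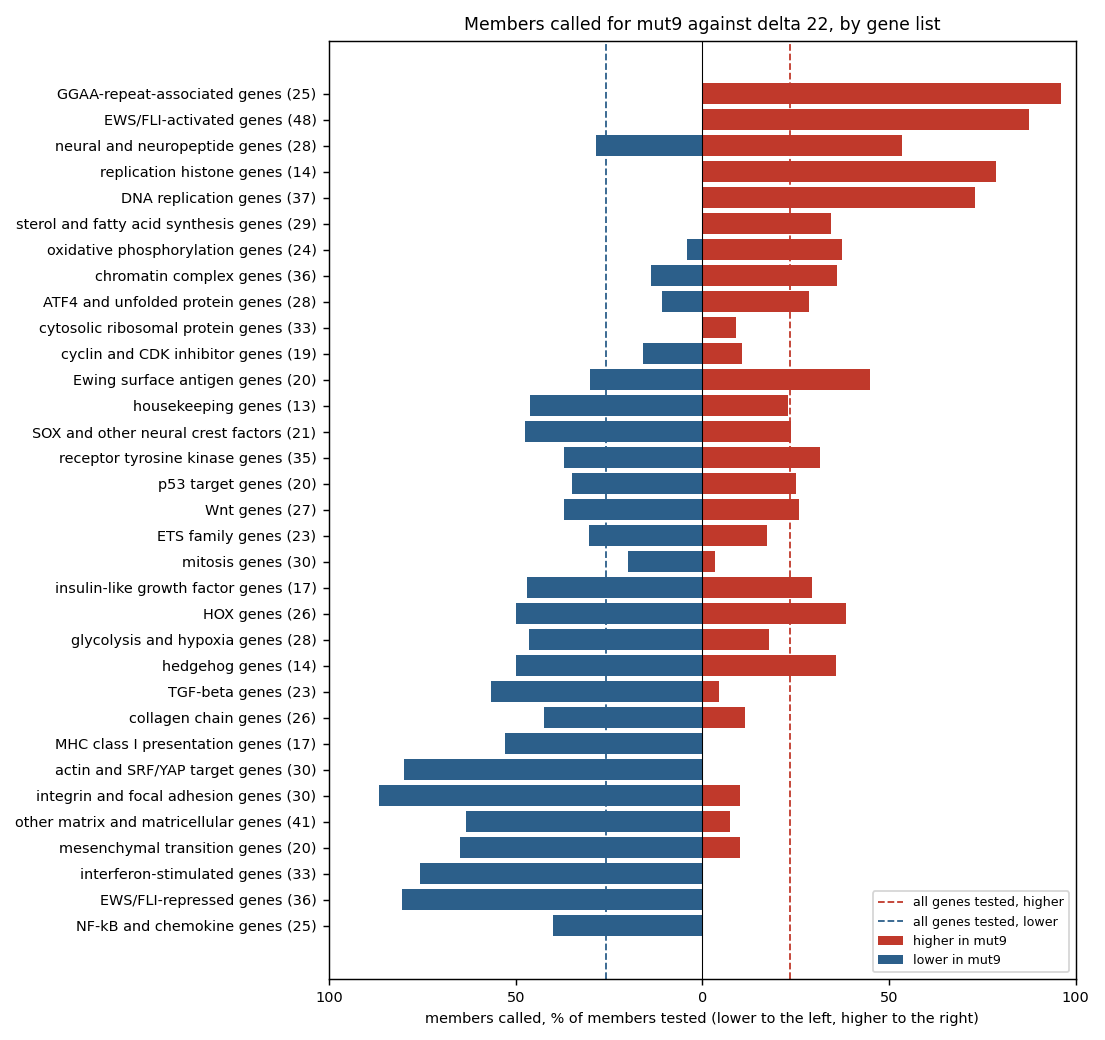
Share of the tested members of each gene list that were called higher (red, right) or lower (blue, left) in mut9 than in delta 22, in % of the members tested, with the number tested in brackets and lists ordered by median difference. Dashed lines mark the shares over all genes tested, 23.4% higher and 25.8% lower.

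Most adhesion genes fell. Of 30 integrin and focal adhesion genes 26 were lower and 3 higher (25.8% and 23.4% of all genes), with a median of -1.12. ITGA2 had 7.78, 7.38 and 7.71 in mut9 libraries, against 11.74, 12.19, 12.76 and 11.11 in delta 22 libraries, and ITGB3, the beta subunit of the vitronectin receptor, 6.14, 5.91 and 5.76 in mut9 libraries, against 9.39, 9.54, 9.34 and 9.59 in delta 22 libraries (difference -3.53 ± 0.30). Every mut9 value of both subunits was below every delta 22 value, which for ITGA2 its selection among the largest falls required. Over all genes, the groups of 52.5% did not overlap. The laminin receptor subunit ITGA6 differed by -2.30 ± 0.16, ITGB8 by -3.71 ± 0.34, ITGA10 by -3.34 ± 0.32 and the actin cross-linker ACTN4 by -0.93 ± 0.10. The 3 that rose were CAV1, CAV2 (1.22 ± 0.13) and the muscle laminin receptor ITGA7 (1.39 ± 0.20), and ITGAV was not called, though with the batch as a replicate block it was lower (-0.48). Actin and SRF or YAP target genes gave 24 lower and none higher of 30, median -0.86, with the tropomyosins TPM1 (-1.83 ± 0.23) and TPM4 (-0.74 ± 0.10), the myosin MYH9 (-1.09 ± 0.12), the LIM protein FHL2 (-1.84 ± 0.20) and calponin CNN3 (-0.98 ± 0.10). The other 6 were not called, and 1 gene of the list was higher under quantile scaling or without delta 22 replicate 3 or 4.

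Matrix genes were lower in larger part than all genes, with exceptions in both classes. Of 26 collagen chain genes 11 (42.3%, against 25.8% of all genes) were lower, 3 (11.5%, against 23.4%) higher and 12 not called, median -0.56. COL6A1, a chain of the beaded-filament collagen of type 6, had 13.3, 13.2 and 13.41 in mut9 libraries, against 15.05, 15.17, 14.4 and 15.12 in delta 22 libraries (difference -1.63 ± 0.28), where delta 22 replicate 3 was the lowest of its group but above every mut9 library. COL6A2 (-1.74 ± 0.28), the transmembrane collagen COL13A1 (-3.16 ± 0.27) and the anchoring fibril chain COL7A1 (-1.95 ± 0.39) fell. COL21A1 rose, with 12.84, 12.74 and 12.22 in mut9 libraries, against 9.72, 8.95, 9.09 and 10.51 in delta 22 libraries (difference 3.03 ± 0.31), as did COL8A2 (0.81 ± 0.22) and COL16A1 (1.25 ± 0.39), COL16A1 losing its call without mut9 replicate 3 (1.01). Of 41 other matrix genes 26 were lower and 3 higher, median -1.27. TGFBI, a matrix protein induced by TGF-beta, differed by -2.60 ± 0.32, the laminin chain LAMC1 by -1.22 ± 0.13 and the metalloproteinase inhibitor TIMP2 by -1.38 ± 0.17, while decorin DCN (2.52 ± 0.35), elastin ELN (1.49 ± 0.36) and FBLN5 (0.91 ± 0.26) were higher.

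Mesenchymal and TGF-beta genes followed the same direction. Of 20 genes of the mesenchymal transition 13 were lower and 2, THY1 (1.53 ± 0.24) and ZEB2 (0.31 ± 0.07), higher, median -1.31. PRRX1, a homeobox factor of limb mesenchyme, had 10.51, 10.62 and 10.29 in mut9 libraries, against 13.76, 13.82, 13.37 and 13.23 in delta 22 libraries (difference -3.07 ± 0.34), and PDGFRA, the platelet-derived growth factor receptor alpha, 10.27, 10.35 and 10.34 in mut9 libraries, against 14.22, 13.52, 12.38 and 12.66 in delta 22 libraries (difference -2.88 ± 0.33). N-cadherin CDH2 differed by -1.86 ± 0.21 and FOXC2 by -2.37 ± 0.26. Of 23 TGF-beta genes 13 (56.5%) were lower and 1 (4.35%), the inhibitory SMAD6 (0.50 ± 0.19), higher, median -0.48. The falls took in the latency proteins LTBP1 (-3.27 ± 0.21) and LTBP2 (-2.55 ± 0.33), the ligand subunit INHBA (-3.40 ± 0.46), the receptors TGFBR1 (-1.84 ± 0.22) and TGFBR2, the signal transducer SMAD3 (-1.43 ± 0.15) and the feedback inhibitor SMAD7 (-1.20 ± 0.18). The ligands TGFB1 and TGFB3 were not called. SMAD6 lost its call without delta 22 replicate 2 (0.46) or 3 (0.36) or mut9 replicate 3 (0.53) or 4 (0.40), and with the batch as a replicate block 2 of the 23 were higher.

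Interferon-stimulated genes were lower in mut9. Of 33 tested, 25 (75.8%, against 25.8% of all genes) were lower and none higher, median -1.85. MX2 had 7.21, 5.19 and 4.95 in mut9 libraries, against 8.67, 11.68, 11.3 and 10.01 in delta 22 libraries, and SAMD9, an antiviral factor, 11.54, 11.13 and 11.23 in mut9 libraries, against 13.54, 13.74, 13.94 and 13.23 in delta 22 libraries (difference -2.31 ± 0.44). Delta 22 replicate 1 was the lowest of its group in MX2 yet above all mut9 libraries, which the selection of MX2 among the largest falls required. IRF1, an interferon-induced transcription factor (-1.81 ± 0.34), OASL (-3.48 ± 0.65), ISG20, an exonuclease (-2.51 ± 0.46), HERC6, a ubiquitin ligase (-3.64 ± 0.82), and RSAD2, the antiviral enzyme viperin (-2.74 ± 0.62), also fell. The mean level of the 33 genes was 10.41, 9.38 and 9.2 in mut9 replicates 3, 4 and 5, and 10.85, 12.22, 12.18 and 11.59 in delta 22 replicates 1 to 4. Every delta 22 library was above every mut9 library. In batch 3, where mut9 had its highest value of the list, wild type stood at 12.08 against 8.26 to 9.61 in its other batches, and the knockdown at 13.02 against 12.05 to 12.38, while delta 22 replicate 3, at 12.18, was just under its group's highest. With the batch as a replicate block 26 of the 33 were lower (median -1.88), and in the 7 mut9 and delta 22 libraries alone with that block 30 were (median -1.75). In batches 3 to 5 alone 15 were lower (median -2.08), and with mut9 and delta 22 libraries of batches 3 and 4 alone 10 (median -1.75). The 30 and the 10 rest on the same pairs of batches 3 and 4 and differ in the estimate of the spread, so they are not separate results.

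Promoter windows of the 5 interferon genes with the largest falls among called members that held the motif below are shown because the interferon list was the one with the highest share of members holding a motif searched for. A window ran from 250 bases before to 50 bases after the start in RefSeq (GRCh38.p14), and 12341 of the genes tested had one. The motif is GAAA, any 2 bases and GAAA, the core of the element bound by interferon regulatory factors, on either strand. It stood in 15 of 26 interferon genes matched (57.7%) and in 3.65% of 27305 promoters in the table. It stood in 3.40% of promoters of genes lower in mut9 and 2.05% of those higher. At 2-fold or more the shares were 5.49% of those lower and 2.79% of those higher, against 3.10% of those not called. Each line gives 40 bases on either side of a match, cut at the end of the window, with matches in capitals. IFI27 lies at chr14:94110588-94110677 (plus strand), MX1 at chr21:41420529-41420607 (plus strand), IFIT1 at chr10:89392467-89392556 (plus strand), IFI44L at chr1:78620244-78620333 (plus strand) and ISG20 at chr15:88638907-88638996 (plus strand).
IFI27: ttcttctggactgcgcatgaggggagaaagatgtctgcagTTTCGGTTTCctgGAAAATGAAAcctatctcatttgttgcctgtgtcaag
MX1: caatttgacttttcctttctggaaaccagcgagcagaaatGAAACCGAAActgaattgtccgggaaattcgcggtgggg
IFIT1: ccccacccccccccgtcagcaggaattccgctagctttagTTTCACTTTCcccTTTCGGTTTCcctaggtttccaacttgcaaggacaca
IFI44L: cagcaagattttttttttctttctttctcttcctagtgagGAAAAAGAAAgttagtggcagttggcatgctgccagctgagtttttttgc
ISG20: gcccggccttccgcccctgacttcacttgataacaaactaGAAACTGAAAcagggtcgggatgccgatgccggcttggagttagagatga
IFI27 fell by 3.94 (SE 1.11), MX1 by 3.71 (SE 1.15), IFIT1 by 3.07 (SE 0.79), IFI44L by 2.74 (SE 0.79) and ISG20 by 2.51 (SE 0.46) on the log2 scale in mut9. MX1 was not called without mut9 replicate 5 (-3.20). In batches 3 to 5 alone MX1 (-4.05) and IFI44L (-2.95) lost their calls. With mut9 and delta 22 libraries of batches 3 and 4 alone MX1 (-3.54), IFI44L (-2.53) and IFIT1 (-2.78) were not called. The first match began 108 bases before the start in IFI27, 116 in IFIT1, 164 in IFI44L and 69 in ISG20, and in MX1 it lay just after the start.

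NF-kB and chemokine genes were lower in part. Of 25 tested, 10 were lower and none higher, with a median of -1.87. With the batch as a replicate block 20 of 25 were lower. The number lower was 20 without delta 22 replicate 1, 16 without wild-type replicate 3, which shares in the estimate of the spread, and 6 with mut9 and delta 22 libraries of batches 3 and 4 alone. CXCL8, the neutrophil chemokine interleukin-8, had 12.71, 12.45 and 13.02 in mut9 libraries, against 14.13, 16.0, 15.72 and 15.35 in delta 22 libraries (difference -2.58 ± 0.53, adjusted p = 0.000516), and LIF, a cytokine of the interleukin-6 family, 9.27, 8.97 and 8.43 in mut9 libraries, against 11.16, 13.23, 12.83 and 12.06 in delta 22 libraries (difference -3.43 ± 0.58). In both genes delta 22 replicate 1 was the lowest of its group, and the groups did not overlap, as was so for 52.5% of all genes. PTGS2, the inducible cyclooxygenase (-2.93 ± 0.51), and the NF-kB feedback gene TNFAIP3 (-2.66 ± 0.61) were lower, with TNFAIP2 (-1.98 ± 0.57) and TRAF1 (-2.45 ± 0.67). The mean level of the list was 9.78, 8.87 and 8.89 in mut9 libraries, against 9.47, 12.12, 11.44 and 10.65 in delta 22 libraries, where replicate 1 lay below mut9 replicate 3. Of 17 genes of MHC class I presentation 9 (52.9%, against 25.8% of all genes) were lower and none higher, median -0.80. Under quantile scaling 6 were lower and 1 higher. Leaving out mut9 replicate 4 or 5 left 3 lower, and delta 22 replicate 2 or 4 left 4. TAP1, the peptide transporter, differed by -1.65 ± 0.50, the peptidase ERAP2 by -1.28 ± 0.32 and B2M, the light chain, by -0.48 ± 0.17. B2M lost its call without delta 22 replicate 2 or 4 or mut9 replicate 4 or 5 (-0.45 to -0.39), in batches 3 to 5 alone (-0.46), in the 7 libraries with the batch as a replicate block (-0.38) and under quantile scaling (-0.10, adjusted p = 0.64). HLA-C (-1.24 ± 0.40) fell too, with reads that near-identical HLA genes can share, and it lost its call without mut9 replicate 4 or 5.

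Genes of DNA replication were higher in mut9, most of them by less than 2-fold. Of 37 tested, 27 (73.0%, against 23.4% of all genes) were higher and none lower, median 0.47. E2F2, a transcription factor of S phase, had 10.96, 11.01 and 11.16 in mut9 libraries, against 9.19, 8.97, 9.02 and 9.41 in delta 22 libraries, a 3.72-fold rise (1.89 ± 0.21, adjusted p = 5.24e-07). MCM2, a subunit of the replicative helicase, had 13.76, 13.79 and 13.87 in mut9 libraries, against 13.2, 13.21, 12.88 and 13.23 in delta 22 libraries (difference 0.68 ± 0.11), and the groups did not overlap although the shift was small. The helicase subunits MCM3 (0.71 ± 0.12), MCM5 (0.71 ± 0.12) and MCM6 (0.98 ± 0.17), the polymerase POLE (0.68 ± 0.09) and the clamp loader RFC4 (0.57 ± 0.09) rose in the same range. E2F1 was among the 10 not called, but was called with the batch as a replicate block (0.30) or without delta 22 replicate 1 (0.30). Replication-dependent histones, whose genes resemble each other and can share reads, gave 11 higher and none lower of 14, median 0.58, among them H1-4 (1.07 ± 0.18) and H4C3 (0.95 ± 0.19).

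The promoters of replication genes are shown for the E2F-type motif TTTGGCGC, searched on both strands in the same windows. It stood in 8 of 32 replication genes matched (25.0%) and in 0.659% of all promoters in the table. It stood in 1.28% of those of genes higher in mut9, 0.523% of those lower and 1.10% of those not called. At 2-fold or more the shares were 0.815% of those higher and 0.499% of those lower, against 0.98% of all genes tested. Below are the 4 called members with the largest rises among those with a match, again with 40 bases on each side and the match in capitals. E2F2 lies at chr1:23531228-23531315 (minus strand), MCM6 at chr2:135876548-135876635 (minus strand), GINS1 at chr20:25407638-25407722 (plus strand) and POLE at chr12:132687313-132687400 (minus strand) in GRCh38.p14.
E2F2: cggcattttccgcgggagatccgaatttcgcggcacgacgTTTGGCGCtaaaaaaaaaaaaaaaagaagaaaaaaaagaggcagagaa
MCM6: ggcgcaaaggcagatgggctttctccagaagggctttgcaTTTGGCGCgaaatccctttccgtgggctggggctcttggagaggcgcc
GINS1: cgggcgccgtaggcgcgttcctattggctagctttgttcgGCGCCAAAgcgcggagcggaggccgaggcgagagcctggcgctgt
POLE: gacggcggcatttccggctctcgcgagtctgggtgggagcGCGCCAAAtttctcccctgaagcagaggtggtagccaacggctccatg
The differences were 1.89 for E2F2, 0.98 for MCM6, 0.72 for GINS1, a subunit of the helicase's GINS complex, and 0.68 for POLE. Of the other motifs, 3 or more GGAA in a row stood in none of 40 promoters of EWS/FLI-activated genes and none of 20 of GGAA-repeat-associated genes, against 0.0623% of all promoters; the windows are short, and no match says only that these letters are not in them. The ATF and CREB motif TGACGTCA stood in 3.00% of promoters of genes higher in mut9, 3.08% of those lower and 3.24% of those not called. It stood in 3.14% of promoters of all genes tested and 1.98% of all in the table, so called genes did not hold it more often than other genes tested. The serum response element core, a CArG box on either strand, stood in 6 of 25 promoters of the actin list (24.0%), against 1.29% of all.

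Mitosis genes did not follow the replication genes. Of 30 tested, 6 were lower, 1, MAD2L1 (0.29 ± 0.10), higher and 23 not called, both shares below those of all genes. The 6 that fell included the ubiquitin-conjugating UBE2C (-0.58 ± 0.09), ANLN of the cleavage furrow (-0.55 ± 0.11), the transcription factor FOXM1 (-0.50 ± 0.12), KIF23 (-0.35 ± 0.09) and CENPF (-0.68 ± 0.18). Under quantile scaling 3 were lower and 4 higher, and 15 were lower without delta 22 replicate 3. With the batch as a replicate block 6 were lower and 3 higher, and in the 7 mut9 and delta 22 libraries alone with that block 1 was lower and 3 higher, median 0.03. In that fit, whose differences rest on batches 3 and 4 only, ANLN (-0.35, adjusted p = 0.0577), FOXM1 (-0.24, adjusted p = 0.136), KIF23 (-0.18, adjusted p = 0.214) and CENPF (-0.31, adjusted p = 0.0865) were not called. MAD2L1 lost its call without delta 22 replicate 3 (0.21), mut9 replicate 4 (0.27) or mut9 replicate 5 (0.27). Among 19 genes on the list of cyclins, cyclin-dependent kinases and their inhibitors, 2 (10.5%) were higher and 3 (15.8%) lower, both below the shares of all genes. MYCN, a MYC family transcription factor on this list, rose 10.1-fold (8.18, 8.87 and 7.89 in mut9 libraries, against 4.42, 4.88, 5.29 and 5.34 in delta 22 libraries), and cyclin D1, CCND1, rose by less (0.51 ± 0.13). CDKN1A, the inhibitor p21, was lower (-0.86 ± 0.24), as were CDK6 (-0.84 ± 0.26) and CDK4 (-0.27 ± 0.09), whose call was lost without mut9 replicate 5 (-0.24), in batches 3 to 5 (-0.20), in the 7 libraries with the block (-0.17) and under quantile scaling (-0.14, where 5 of the 19 were higher and 2 lower). Of 20 p53 targets 5 (25%, against 23.4% of all genes) were higher, among them FDXR (1.56 ± 0.18) and MDM2 (0.58 ± 0.10), and 7 (35%, against 25.8%) lower, among them PMAIP1 (-1.10 ± 0.12), TP53I3 (-1.75 ± 0.21) and PLK3 (-1.20 ± 0.18), with a median of -0.13; 3 were higher without delta 22 replicate 1.

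Metabolic lists had smaller medians, and their counts stand against 23.4% higher and 25.8% lower over all genes. Of 29 genes of sterol and fatty acid synthesis 10 (34.5%) were higher and none lower, median 0.37. With the batch as a replicate block 21 were higher and 2 lower, and 5 were higher without mut9 replicate 3. The fatty acid desaturases FADS1 (1.31 ± 0.32) and FADS2 (1.31 ± 0.36) and the synthase FASN (0.64 ± 0.17) rose. Of 24 oxidative phosphorylation genes 9 (37.5%) were higher, led by NDUFA4 (0.97 ± 0.14), and 1 (4.17%), SDHA (-0.53 ± 0.07), lower. Of 28 glycolysis and hypoxia genes 13 (46.4%) were lower and 5 (17.9%) higher, median -0.37, though 8 were lower and 9 higher under quantile scaling. The secreted peptide ADM (-2.67 ± 0.28), the regulators PFKFB3 (-1.02 ± 0.13) and PFKFB4 (-1.67 ± 0.21), the pyruvate kinase PKM (-0.75 ± 0.10) and the angiogenic factor VEGFA (-0.86 ± 0.15) fell, while ALDOC (1.19 ± 0.40) and ENO2 (0.84 ± 0.16) rose; 3 rather than 5 were higher without delta 22 replicate 1 or any 1 mut9 library, and ALDOC lost its call without delta 22 replicate 1 (1.05) or mut9 replicate 3 (1.06) or 4 (1.14). Of 28 ATF4 and unfolded protein genes 8 (28.6%) were higher, a share near that of all genes, and 3 (10.7%) lower. Those higher took in the serine synthesis enzymes PSAT1 (1.01 ± 0.19) and PHGDH (0.78 ± 0.17) and the chaperone HSPA5 (0.71 ± 0.26). Those lower were WARS1 (-1.37 ± 0.23), ATF3 (-1.76 ± 0.44) and XBP1 (-0.62 ± 0.16). Without mut9 replicate 3, 5 were higher. Of 33 ribosomal protein genes 3 (9.09%) were higher (RPS16, RPL13 and RPS19) and none lower, but 20 were higher under quantile scaling.

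Within the insulin-like growth factor system the ligand rose and the receptor and several binding proteins fell. IGF1 rose as above, with the adaptor IRS2 (13.66, 13.75 and 13.55 in mut9 libraries, against 11.66, 11.76, 12.03 and 11.46 in delta 22 libraries; difference 1.92 ± 0.12), the insulin receptor INSR (1.76 ± 0.22), the mRNA-binding IGF2BP1 (0.98 ± 0.13) and PAPPA, a protease that cleaves binding proteins (0.80 ± 0.27). Of the binding proteins IGFBP3, IGFBP5 (-2.63 ± 0.27), IGFBP6 (-1.77 ± 0.21) and IGFBP7 fell. The receptor IGF1R differed by -0.42 ± 0.13, the clearance receptor IGF2R by -0.31 ± 0.09, and the mRNA-binding IGF2BP2 and IGF2BP3 by -0.83 ± 0.11 and -0.38 ± 0.13. In all, 5 of 17 (29.4%, against 23.4% of all genes) were higher and 8 (47.1%, against 25.8%) lower, but 6 were higher and 5 lower under quantile scaling, where IGF1R (-0.32), IGF2R (-0.13) and IGF2BP3 (-0.23) were not called. Calls were also lost by IGF1R without mut9 replicate 3 (-0.37), IGF2R without mut9 replicate 5 (-0.23), IGF2BP3 without delta 22 replicate 1 (-0.29) or mut9 replicate 3 (-0.33), and PAPPA with the batch as a replicate block (0.65) or without delta 22 replicate 1 (0.60) or mut9 replicate 4 (0.78).

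Developmental pathways held both rises and falls. Of 27 Wnt genes 7 (25.9%, against 23.4% of all genes) were higher and 10 (37.0%, against 25.8%) lower. The secreted DKK2, which acts at Wnt coreceptors, had 13.16, 12.8 and 12.07 in mut9 libraries, against 7.64, 8.13, 8.82 and 9.22 in delta 22 libraries, an 18.7-fold rise, and its coreceptor LRP6 differed by 0.99 ± 0.11 and the pathway inhibitor NKD2 by 2.65 ± 0.31, against falls of SFRP1, the ligand WNT5B (-2.15 ± 0.20) and the factor TCF7 (-1.63 ± 0.21). Of 14 hedgehog genes 5 were higher and 7 lower, both shares above the 23.4% and 25.8% of all genes. Those higher took in the receptor PTCH1 (1.41 ± 0.12), the effector GLI1 (2.13 ± 0.21) and the coreceptor GAS1 (1.92 ± 0.23). Those lower took in HHAT (-1.53 ± 0.17), DISP1 (-0.84 ± 0.16) and BOC (-1.48 ± 0.30). When mut9 replicate 5 was left out, 4 of the 14 were lower. Of 28 neural and neuropeptide genes 15 (53.6%) were higher and 8 (28.6%) lower, median 0.90. NGFR, a receptor of nerve growth factor, had 13.61, 13.94 and 13.93 in mut9 libraries, against 10.11, 10.02, 10.09 and 10.17 in delta 22 libraries (difference 3.73 ± 0.33). The neuropeptide receptors NPY1R (3.41 ± 0.33) and NPY5R (4.00 ± 0.30), the prohormone convertase PCSK2 (4.10 ± 0.38), SYT1 of synaptic vesicles (1.41 ± 0.11) and the homeobox factor ISL1 (2.23 ± 0.13) rose too.

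Of 35 receptor tyrosine kinases 11 (31.4%, against 23.4% of all genes) were higher and 13 (37.1%, against 25.8%) lower. EPHB3, an ephrin receptor, rose 7.85-fold (2.97 ± 0.26), while EPHA2 (-1.26 ± 0.10), the hepatocyte growth factor receptor MET (-2.30 ± 0.26) and FGFR1 (-0.81 ± 0.07) fell. Among 21 SOX and other neural crest factors 5 (23.8%, near the 23.4% of all genes) were higher and 10 (47.6%, against 25.8%) lower. PAX7, a paired-box factor of muscle stem cells and neural crest, had 11.54, 11.69 and 11.29 in mut9 libraries, against 6.48, 6.55, 7.22 and 7.89 in delta 22 libraries (difference 4.47 ± 0.46). SOX6 (1.26 ± 0.13) and FOXD3 (1.76 ± 0.25) rose too, and MSX2 (-2.48 ± 0.26), SNAI2 (-1.78 ± 0.23) and SOX11 (-1.14 ± 0.17) fell. On this list 3 were higher without mut9 replicate 4 and 8 without mut9 replicate 5. Of 20 surface antigens of Ewing sarcoma 9 were higher, including the pyrophosphatase ENPP1 (2.38 ± 0.16), a share above the 23.4% of all genes. Another 6 were lower, a share only a little above the 25.8% of all genes. Of 23 genes on the ETS family list, which also holds the partner subunit GABPB1, 4 (17.4%) were higher and 7 (30.4%) lower. FEV, a neural ETS factor that is itself a rare fusion partner of EWSR1, had 7.54, 7.53 and 7.37 in mut9 libraries, against 3.54, 3.31, 4.17 and 4.31 in delta 22 libraries (difference 3.65 ± 0.29). ELF2 rose by 0.52, and ETS1 (-1.71 ± 0.29), GABPB1 (-0.42 ± 0.08) and EHF (-3.16 ± 0.82) fell. Of 36 chromatin complex genes 13 (36.1%) were higher and 5 (13.9%) lower, 21 and 1 under quantile scaling, and 3 lower without mut9 replicate 3 or 4. The BAF subunit SMARCC1 had 13.84, 13.84 and 13.72 in mut9 libraries, against 12.56, 12.46, 12.62 and 12.69 in delta 22 libraries (difference 1.22 ± 0.09), the NuRD helicase CHD3 differed by 1.11 ± 0.11 and the Polycomb gene CBX8 by 1.07 ± 0.13.

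HOX genes, the homeobox factors that set position along the body axis, separated by cluster. All 7 HOXD genes from HOXD3 to HOXD13 that were tested were higher in mut9 and HOXD1 was lower. In the B cluster HOXB2, HOXB3, HOXB4, HOXB6, HOXB7, HOXB8 and HOXB9 were lower, HOXB5 was not called and HOXB13 was higher (0.72 ± 0.17). In the C cluster 5 of 9 were lower and HOXC12 and HOXC13 higher. The median difference was 1.10 for HOXD, -0.74 for HOXB and -0.34 for HOXC, and the 11 HOXA names were below the filter. HOXD11 had 10.12, 10.09 and 9.97 in mut9 libraries, against 9.18, 9.05, 9.09 and 9.14 in delta 22 libraries (difference 0.95 ± 0.10), HOXD9 10.23, 10.13 and 9.81 in mut9 libraries, against 9.02, 8.68, 8.79 and 9.14 in delta 22 libraries (difference 1.15 ± 0.14) and HOXB8 7.37, 6.95 and 7.18 in mut9 libraries, against 9.06, 9.0, 8.97 and 9.22 in delta 22 libraries (difference -1.89 ± 0.19). None of these 3 overlapped, as was so for 52.5% of all genes. The 3 were picked for a small adjusted p, which favours groups that do not overlap. Calls were lost when 1 library was left out for HOXB4 (mut9 replicate 4 or 5), HOXB9 (mut9 replicate 5), HOXC12 (delta 22 replicate 1 or 4, mut9 replicate 3 or 5) and HOXD1 (delta 22 replicate 3, mut9 replicate 4 or 5), and HOXB5 was called without delta 22 replicate 3 (-0.65). HOXD8 differed by 1.06 ± 0.12, HOXB2 by -1.04 ± 0.11 and HOXB3 by -0.78 ± 0.08. Mean HOXD11 was 10.06 with wild type, 9.17 in the knockdown and 9.85 in the control, while mean HOXB8 was 6.28 with wild type, 7.64 in the knockdown and 6.51 in the control, below its delta 22 mean of 9.06 in each.

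**Figure D4:**
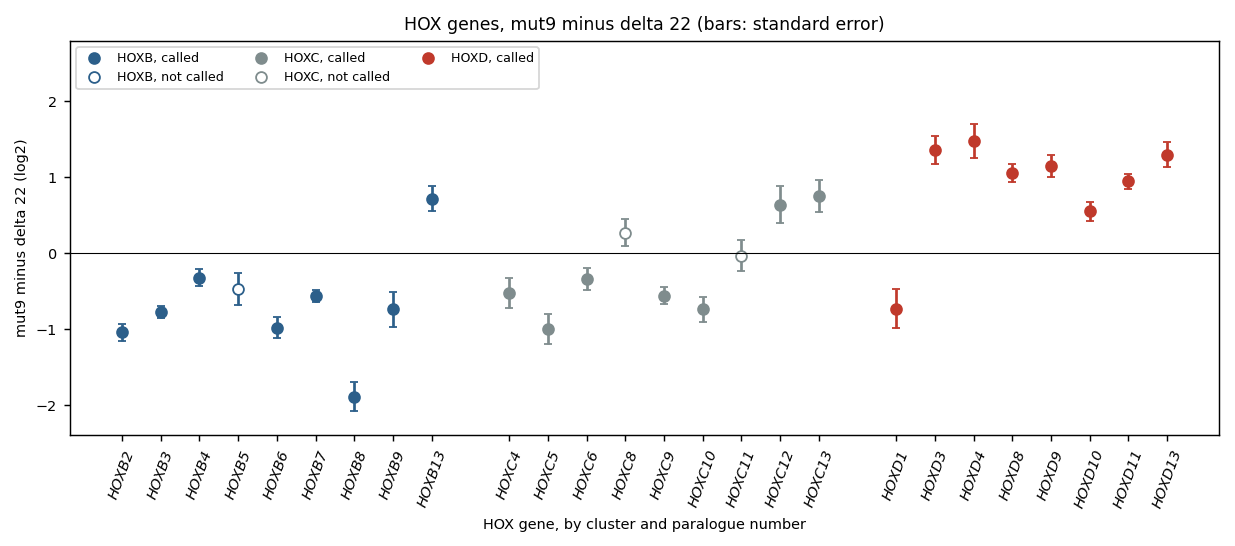
Difference between mut9 and delta 22 (y axis, log2, with standard error) of the 26 HOX genes tested, by cluster and paralogue number (x axis); filled points were called and open points were not. HOXD3 to HOXD13 lie above 0 and HOXB2 to HOXB9 below 0, while the highest numbers of the B and C clusters, HOXB13, HOXC12 and HOXC13, lie above 0.

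Some RNAs outside the protein-coding genes, chosen after their values were seen, differed too. EWSAT1, a long noncoding RNA named for Ewing sarcoma, had 8.79, 9.06 and 8.74 in mut9 libraries, against 4.27, 4.64, 4.13 and 5.0 in delta 22 libraries, a 20.4-fold rise (4.35 ± 0.27). Of the 5 variable segments of the T cell receptor alpha locus on chromosome 14 that were tested, 4 were higher, TRAV3 (7.56, 7.7 and 6.89 in mut9 libraries, against 3.26, 3.25, 3.99 and 3.71 in delta 22 libraries; difference 3.83 ± 0.29), TRAV1-2 (3.29 ± 0.37), TRAV6 (3.09 ± 0.24) and TRAV4 (1.00 ± 0.15), and TRAV2 was not called (0.45 ± 0.23). Mean TRAV3 was 7.5 with wild type, 4.11 in the knockdown and 7.32 in the control. The T cell marker CD3E did not pass the filter, with values of -2.55 to -2.35 over all 21 libraries.

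Of the epithelial, endothelial, blood, muscle and melanocyte markers, 11 of 24 in the table passed the filter; CDH1, KRT5, TEK, CD3E, MYOD1, MYOG and TYR were at most 0.47 in every library, and HBB was at 0 in all, while KRT18 lay at 12.51 to 13.65 over the 21 libraries. Among those tested the endothelial receptor KDR fell (8.54, 8.54 and 8.35 in mut9 libraries, against 11.2, 11.14, 10.64 and 10.67 in delta 22 libraries; difference -2.44 ± 0.34), with VWF (-1.37 ± 0.20) and the tight-junction gene CLDN4 (-3.11 ± 0.35), the muscle filament DES (-2.22 ± 0.34) fell, and KRT8 (0.97 ± 0.32) and PMEL (1.29 ± 0.28) rose; KRT8 lost its call without delta 22 replicate 1 (0.75) or mut9 replicate 3 or 4 (0.84 and 0.95). CDH5, CD14, PTPRC, KRT18 and MYH3 were not called. The mean over the 3 tested endothelial markers was 4.89, 5.08 and 4.79 in mut9 libraries, against 6.63, 6.68, 6.28 and 6.12 in delta 22 libraries, and its part in the falls of THBD and ESM1 was not tested. Of these markers VWF lay at only 2.09 to 4.23 and CDH5 at 2.95 to 4.98 over the 21 libraries, and PECAM1 was not in the table. All cultures were of the A673 line. In RNA of whole cultures, fewer A673 cells with a given RNA and less of it per cell cannot be told apart. Of 9 tested markers of Ewing sarcoma cells 8 were higher in mut9 and FLI1 lower. The 8 include EWSR1, whose call was lost in many settings, and EWS/FLI-activated genes described above, such as NR0B1, NKX2-2 and PRKCB. The count is therefore not separate evidence on the type of the cells. Of 13 housekeeping genes 3 (23.1%, against 23.4% of all genes) were higher, 6 (46.2%, against 25.8%) lower and 4 not called, median -0.02. GAPDH (-0.40 ± 0.09) and ACTB (-0.44 ± 0.11) fell, and both turned direction under quantile scaling, to 0.01 and 0.02.

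Wild type minus knockdown, from 10 other libraries, which enter mut9 minus delta 22 only through the shared estimate of the spread, asked how far the same genes respond to full-length EWS/FLI. It called 61.8% of genes, 29.6% higher and 32.3% lower with wild type. Of the genes higher in mut9 than in delta 22, 76.6% were higher and 1.3% lower with wild type than in the knockdown; of those lower in mut9, 80.8% were lower and 2.1% higher. Genes not called for mut9 minus delta 22 gave 21.8% higher and 21.9% lower. Seen from the other side, the shared calls were 60.7% of the genes higher with wild type and 64.6% of those lower. Without wild-type replicate 3, chosen for leaving out after the data were seen, 74.7% of the genes higher in mut9 were higher with wild type and 79.1% of those lower were lower. Across the 18040 genes, which share their libraries within each comparison and are not independent, the 2 differences correlated at r = 0.863 (Spearman 0.803). Control minus knockdown, a difference that is positive where the control is higher, called 69.5% of genes, 34.0% higher and 35.5% lower in the control; 79.6% of genes higher in mut9 were higher and 83.4% of those lower were lower in the control than in the knockdown (r = 0.802 across genes).

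The test of the difference between the mut9 minus delta 22 and the wild type minus knockdown differences called 1975 genes (10.9%), 1081 with a higher and 894 with a lower value for mut9 minus delta 22. Of 7001 genes called the same way in both, 592 differed in size, 193 larger and 399 smaller for mut9 minus delta 22. Another 411 were called for mut9 minus delta 22 and for the difference, but not for wild type minus knockdown. The count was 952 without mut9 replicate 3, 1186 without mut9 replicate 4 and 2487 without wild-type replicate 3. It fell to 285 in batches 3 to 5 alone and to 852 with mut9 and delta 22 libraries of batches 3 and 4 alone. Genes of opposite sign in the 2 comparisons, called in both and for the difference, numbered 155, 56 higher and 99 lower in mut9, and 7 of them were at least 2-fold.

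BMP5, a bone morphogenetic protein, had 7.86, 8.3 and 8.14 in mut9 libraries, against 5.78, 5.55, 6.63 and 7.51 in delta 22 libraries (difference 1.74 ± 0.42), with means of 6.37 with wild type and 7.45 in the knockdown. MCF2L, a guanine nucleotide exchange factor, had 10.47, 9.52 and 10.16 in mut9 libraries, against 8.12, 8.89, 8.35 and 9.02 in delta 22 libraries (difference 1.46 ± 0.32), with 8.13 with wild type and 8.92 in the knockdown. In both genes mut9 was above, and wild type below, the group each was set against. TENT5B (1.17 ± 0.40), the lipoprotein receptor LRP8 (0.64 ± 0.19), CTH of cysteine synthesis (0.74 ± 0.26) and the chaperone HSPA5 (0.71 ± 0.26) were the other named genes higher in mut9 and lower with wild type. Lower in mut9 and higher with wild type were FLI1 itself, the nuclear receptor NR2F2 (-0.53 ± 0.18), the kinesin KIF5C (-0.68 ± 0.28), CREB5 (-0.55 ± 0.22) and the phosphatase DUSP16 (-0.62 ± 0.18). Of these, FLI1 alone was past 2-fold. In batches 3 to 5 alone the BMP5 difference was 1.03 and in the mut9 and delta 22 libraries of batches 3 and 4 alone 1.01, neither called (adjusted p = 0.0656 and 0.115). Calls of TENT5B, CTH, HSPA5, NR2F2, KIF5C and CREB5 for mut9 minus delta 22 were lost when 1 or another mut9 or delta 22 library was left out, that of KIF5C also without wild-type replicate 3, and that of TENT5B also with the batch as a replicate block (0.88, adjusted p = 0.0528).

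**Figure D5:**
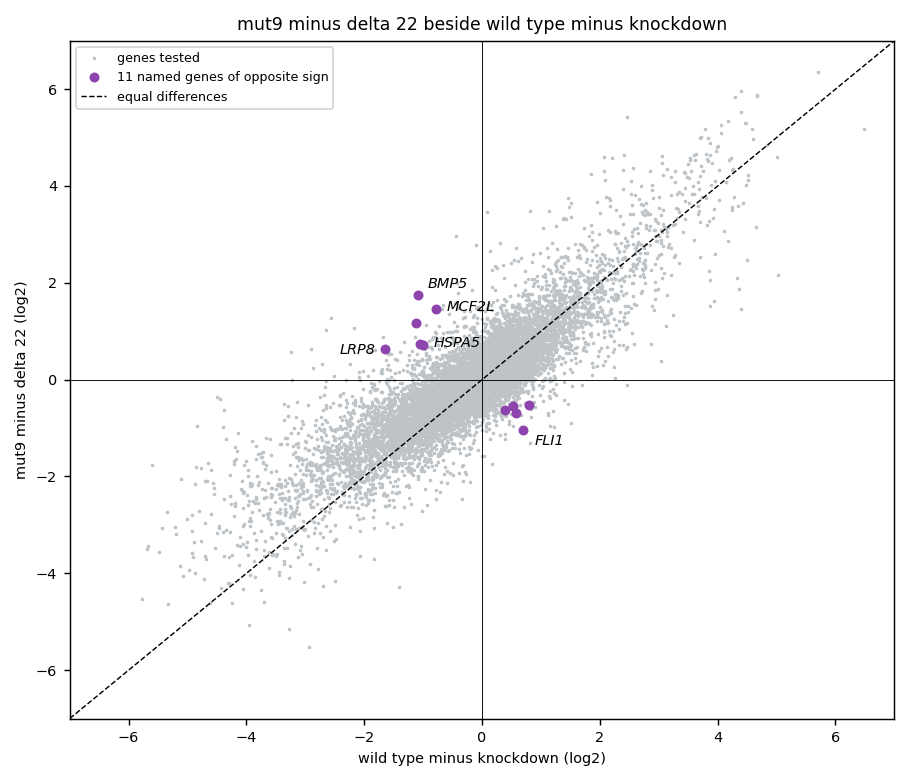
Difference between mut9 and delta 22 (y axis, log2) beside the difference between wild type and knockdown (x axis, log2), which come from separate libraries, with 1 dot for each of 18040 genes and a dashed line of equal differences. Over all genes r was 0.863; named genes of opposite sign are in purple, 6 in the upper left and 5 in the lower right.

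In a few genes the delta 22 libraries stood above all other groups, so that the difference from mut9 was larger than the distance between mut9 and the knockdown. These were picked after their values were seen, and the levels are given side by side because the differences share libraries. THBD averaged 5.31 ± 0.56 with mut9 and 10.46 ± 0.59 with delta 22 (SD, n = 3 and 4), against 5.37 with wild type, 8.65 in the knockdown and 3.46 in the control. CXCR4 averaged 6.34 ± 0.98 with mut9 and 10.61 ± 1.14 with delta 22, against 7.05 with wild type, 8.47 in the knockdown and 6.44 in the control. IGFBP5, a binding protein of insulin-like growth factors, had 15.11, 14.78 and 14.17 in mut9 libraries, against 17.56, 17.3, 16.97 and 17.45 in delta 22 libraries, with means of 12.75 with wild type, 15.04 in the knockdown and 10.13 in the control. KDR averaged 8.48 ± 0.11 with mut9 and 10.91 ± 0.30 with delta 22, against 8.32 with wild type, 9.55 in the knockdown and 5.55 in the control, and the fibril-associated collagen COL14A1 averaged 3.22 ± 0.48 with mut9 and 5.70 ± 0.97 with delta 22, against 3.06 with wild type, 3.4 in the knockdown and 2.56 in the control. In each of these 5 genes the delta 22 mean was the highest of the 5 groups. In the 7 libraries with the batch as a replicate block the COL14A1 difference was -1.62 and was not called (limma adjusted p = 0.0501). COL6A1 showed another order, with 13.3 with mut9, 14.94 with delta 22, and 11.13 with wild type, 15.3 in the knockdown and 9.79 in the control, where the mut9 mean lay nearer to delta 22 and the knockdown than to wild type.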

How the data were processed

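RNA of A673 cells was purified on columns with DNase treatment, and ScriptSeq libraries were made from 2.5 ug of total RNA, per the labels' protocols. The authors deposited 1 table of normalised log2 values for 57820 Ensembl gene IDs in 21 libraries, of -4.1 to 20.2, with 17358 genes at exactly 0 in every library. The submitters' processing notes name bcl2fastq, STAR 2.5.2b, HTSeq, DESeq2 and hg19 without role or order. Strand settings are not given in the sources used here. As the values were already log2, no count test was run, no pseudocount was added and the depth per library is unknown.

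Groups and batch numbers came from the labels. IDs were given symbols from GENCODE 29 and a table of current gene names, which matched 52338 and left 5482, and 17547 of the tested genes had one. Genes of at least 10 on the linear scale in 3 or more libraries were fitted with limma 3.58.1 (R 4.3.3) with a trend, 1 mean per group over all 21 libraries, so all groups share 1 estimate of the spread. Calls are at a two-sided Benjamini-Hochberg adjusted p below 0.05 over the 18040 genes. The code was tested on simulated data. No 2 libraries were alike (highest r 0.9978, 0 identical genes). Replicate numbers are labelled batches: over 34 pairs of libraries of different groups with the same number the deviations from group means correlated at 0.203 on average, 24 of them above 0.1, against -0.049 over 141 other pairs, and for mut9 and delta 22 at -0.071 in batch 3 and 0.15 in batch 4.

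The genes and the gene lists were chosen with earlier results of these data known. The named genes are FLI1 and EWSR1, 12 rises and 12 falls, the largest among genes called, not overlapping and averaging log2(100) or more, up to 6 members of each list with the smallest adjusted p, a few fixed genes, and up to 6 genes in each direction of opposite sign to wild type minus knockdown. List members called against the direction of their list, other members named by size, noncoding RNAs and genes with delta 22 above the knockdown were picked after their values were seen. Some genes are not reported here. Alternatives changed the filter, the scaling, the batch as a replicate block, the libraries fitted, library weights and the variance model. Promoters were the RefSeq windows of GRCh38.p14, 1 a symbol (27305).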

Additional observations from a re-analysis of the deposited data

Results flagged for a closer look

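Among 277 genes examined in the 4 delta 22 libraries, 9 had 1 library that stood apart from the other 3 by Dixon's test, where chance gives about 1 in 20. Delta 22 replicate 3 was low in 6 of them. It had a log2 level of 14.86 in COL6A2, against 15.48 to 15.53 in the other delta 22 libraries, 14.4 in COL6A1, against 15.05 to 15.17, and 15.56 in TPM4, against 15.94 to 16.01. It stood at 12.88 in MCM2, against 13.2 to 13.23, and at 9.74 in WNT5B, against 10.04 to 10.08, and at 10.98 in GINS1, against 11.56 to 11.6. Delta 22 replicate 1 was low in KRT8, at 8.48 against 9.33 to 9.4, and in LOX, at 13.08 against 13.55 to 13.64. Delta 22 replicate 4 was low in TFAP2C, at 7.41 against 9.8 to 10.2. The mut9 group has 3 libraries and was not examined in this way.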

How the results depend on the processing

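The number of genes called for mut9 minus delta 22 was 7604 to 8542 when 1 mut9 or delta 22 library was left out, 8936 without wild-type replicate 3 and 9140 with the batch as a replicate block. It was 5569, of which 2425 were higher, with the 7 libraries alone and the replicate block, where the difference rests on the pairs of batches 3 and 4. Calls of at least 2-fold came to 1701 with a mean of at least log2(100), where 12166 genes were tested. The share of calls that were higher was 47.6%, and 54.3% under quantile scaling, which moved the median of all genes to 0.034. The count for the difference between both differences was 1184 with no filter, 285 in batches 3 to 5, 852 with the shared batches and 3067 with array weights, and 952 to 2487 when 1 library was left out, without mut9 replicate 3 at the low end and wild-type replicate 3 at the high end. The cause was not tested. It could not be fitted with 7 libraries alone. EWSR1 stood at 0.19 with no filter, 0.21 with the replicate block, 0.17 with the 7 libraries and the replicate block, 0.21 in batches 3 to 5, 0.17 with the shared batches and 0.14 to 0.22 when 1 library was left out, and was not called in these settings except without delta 22 replicate 4 or wild-type replicate 3. Direction turned for KRT18 in batches 3 to 5 (-0.05) and for GAPDH (0.01) and ACTB (0.02) under quantile scaling. Of 275 named genes besides FLI1 and EWSR1, the replicate block ended the calls of 2, TENT5B and PAPPA, and added those of E2F1, ID2 and ITGAV. Among the lists it moved counts by over 1.5 times only for NF-kB, sterol, mitosis and TGF-beta genes. The calls of 26 were lost with the 7 libraries and the replicate block, of 33 with the shared batches 3 and 4, of 25 in batches 3 to 5, of 8 under quantile scaling and of 3 to 13 when 1 mut9 or delta 22 library was left out. No pseudocount alternative applied to values already on a log scale. With no read totals, the precision of low genes is unknown.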
